A study of Mus musculus with 6 samples.

Results

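Net39 and the lipid phosphate phosphatases related to it were followed through bulk RNA-Seq of mouse gastrocnemius/plantaris (GP) muscle. The members were taken by symbol from the deposited counts: Ppapdc3, the older symbol of Net39, and 6 relatives, Ppap2a, Ppap2b, Ppap2c, Ppapdc1a, Ppapdc1b and Ppapdc2. These are 7 of the 24421 genes listed, and all 7 were found. The 6 libraries came from GP muscle of male mice 5 months of age, 3 months after tamoxifen, which both groups received. By the labels, the 3 Ctrl mice carried Net39 fl/fl without Cre and the 3 cKO mice HSACreERT2;Net39 fl/fl. Both groups shared the floxed allele, in which loxP sites flank the first exon of Net39, on a background derived from B6C3F1 zygotes and C57BL/6N. HSACreERT2 is a tamoxifen-inducible Cre driven by the human skeletal actin promoter, which is active in skeletal muscle fibres, so that other cells of the muscle keep an intact Net39.

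The family belongs to the type 2 phosphatidic acid phosphatases (PAP2), membrane proteins that remove a phosphate from lipids such as phosphatidate, lysophosphatidate, sphingosine-1-phosphate and ceramide-1-phosphate without needing magnesium. At the cell surface they lower the signals that lysophosphatidate and sphingosine-1-phosphate give through their receptors, and inside the cell they yield diacylglycerol. Net39 is a transmembrane protein of the nuclear envelope that is enriched in skeletal muscle and heart, and it is regarded as lacking phosphatase activity. Ppap2a, Ppap2c and Ppap2b encode the classical lipid phosphate phosphatases LPP1, LPP2 and LPP3. Ppapdc1a and Ppapdc1b encode PAP2-domain enzymes of the endoplasmic reticulum and other membranes, and Ppapdc2 encodes a phosphatase of isoprenoid diphosphates such as presqualene diphosphate. The question put to the relatives was whether any of them is higher in the libraries where Net39 is low.

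The gene structures fall into the same branches. In GENCODE M21 on GRCm38 (mm10), Ppap2a (chromosome 13, 112800792 to 112867894, plus strand), Ppap2b (chromosome 4, 105157347 to 105232764, plus strand) and Ppap2c (chromosome 10, 79526430 to 79533796, minus strand) each have 6 exons. Their coding exons 4 and 5 have 58 and 177 bases in all 3 genes, and exon 3 has 281 bases in Ppap2a and Ppap2b and 275 in Ppap2c. Ppapdc1a (chromosome 7, 129257031 to 129391412, plus strand) and Ppapdc1b (chromosome 8, 25720037 to 25724887, plus strand) each have 7 exons, and their exons 2 to 6 have the same sizes of 109, 91, 64, 125 and 171 bases. Ppapdc2 (chromosome 19, 28963953 to 28966811, plus strand) has 1 exon, and Net39, on the plus strand of chromosome 2, has 2. Coding sequences of the 7 genes, without the stop codon, span 780 to 936 bases.

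The stretch before the start of Net39 adjoins the floxed exon. The donor sequence in the methods places the upstream loxP site inside this stretch, near its far end, so most of it, with the marked letters, lies between the loxP sites, and the reference printed here lacks the inserted site. The stretch before the start of Ppap2b, the most abundant relative in the Ctrl-labelled libraries, is shown for comparison. Both are the 250 bases before the start site in RefSeq (GRCm38.p6, plus strand), at chr2:32095278-32095527 and chr4:105157097-105157346. Capitals mark the letters CANNTG, the E-box read by muscle regulatory factors such as MyoD.
Ppapdc3 (Net39): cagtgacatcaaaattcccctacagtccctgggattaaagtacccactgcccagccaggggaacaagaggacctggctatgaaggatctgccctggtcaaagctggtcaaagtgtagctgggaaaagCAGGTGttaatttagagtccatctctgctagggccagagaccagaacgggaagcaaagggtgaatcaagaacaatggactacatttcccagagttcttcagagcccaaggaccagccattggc
Ppap2b: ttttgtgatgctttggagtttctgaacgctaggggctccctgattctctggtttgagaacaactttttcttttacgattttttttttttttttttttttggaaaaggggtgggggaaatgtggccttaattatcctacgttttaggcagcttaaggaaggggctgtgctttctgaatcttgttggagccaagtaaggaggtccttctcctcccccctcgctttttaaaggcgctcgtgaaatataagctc

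The Net39 window holds 1 CANNTG, which starts 123 bases before the start site, and 1 CCAAT, on the minus strand, 6 bases before it. It holds no TATAAA, no CAGCTG (a form of CANNTG) and no match to the MEF2 or CArG motif. The Ppap2b window holds none of the 6. Read on both strands over 32851 RefSeq windows of the same length, CANNTG occurs in 66.2%, CCAAT in 33.8%, CAGCTG in 13.0%, TATAAA in 12.4%, the MEF2 motif in 2.92% and the CArG motif in 1.47%. Ppap2c, Ppapdc1a and Ppapdc2 were also matched in RefSeq. Ppapdc1a held 2 CANNTG, of which 1 was CAGCTG, Ppapdc2 held 2 CANNTG and 1 CCAAT, and Ppap2c held none of the 6. A match of letters is a description of the sequence and does not show a bound site.

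Counts per library summed to 33860001 to 38201728 in the Ctrl-labelled libraries and to 39191239 to 48839910 in the cKO-labelled libraries, and the factors of the trimmed mean of M-values (TMM) were 1.08 to 1.11 and 0.865 to 0.983. Skeletal myofibre markers made up 93300 to 118000 CPM (counts scaled to the TMM library size) and 150000 to 198000 CPM, respectively, the largest sum of the marker lists in each library. Of 8 genes 5 passed as higher in the cKO-labelled libraries and 1, the fast myosin Myh1, as higher in the Ctrl-labelled libraries, against 12.6% and 11.8% of all genes tested. Myh4, a large part of the sum, had means of 25520 CPM in the Ctrl-labelled and 70120 CPM in the cKO-labelled libraries. Acta1 and Ttn did not pass (edgeR adjusted p = 0.474 and 0.0685). Slow fibre markers summed to 9350 to 15900 CPM in the Ctrl-labelled libraries and to 588 to 4150 CPM in the cKO-labelled libraries. Of 10 genes 5 passed as higher in the former by edgeR and 9 with DESeq2, where 11.8% and 13.2% of all genes tested did. Net39, the gene targeted in the mice labelled cKO, was low in the Ctrl-labelled libraries and high in the cKO-labelled libraries. The counts of Net39 therefore go against the labels, and every direction below is given for the libraries as labelled. Whether the labels or the count files were exchanged between the groups was not tested, and if they were, the sign of each fold change below would turn.

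Net39 was the member that differed most. It had 310, 321 and 217 counts in the Ctrl-labelled libraries 1, 2 and 3 and 5365, 4340 and 6080 in cKO-labelled libraries 1, 2 and 3. In TMM-normalized CPM these were 7.92, 7.75 and 5.93 against 151, 113 and 138, or 7.20 ± 1.10 and 134 ± 19.7 (SD, n = 3 each). The lowest library labelled cKO lay far above the highest labelled Ctrl, and within each group the highest library was 1.33 and 1.34 times the lowest. The log2 fold change, labelled cKO over labelled Ctrl, was 4.22 with a standard error (SE) of 0.17 and a 95% interval of 3.83 to 4.61 (edgeR quasi-likelihood test, adjusted p = 0.000161 over the 14180 genes tested), which is 18.6-fold. Among the 12353 tested genes with a mean of at least 1 CPM it ranked 11 by absolute log2 fold change, and over all genes tested it ranked 2 by p. Of all genes tested, 12.6% passed an adjusted p of 0.05 in this direction and 2.13% also exceeded a fold change of 2. The transcript was not lost in the Ctrl-labelled libraries, which held 4.43% to 5.90% of the mean of the cKO-labelled libraries. Counting was per gene, so the reads of the floxed exon and of the exon outside it were not separated.

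**Figure D1:**
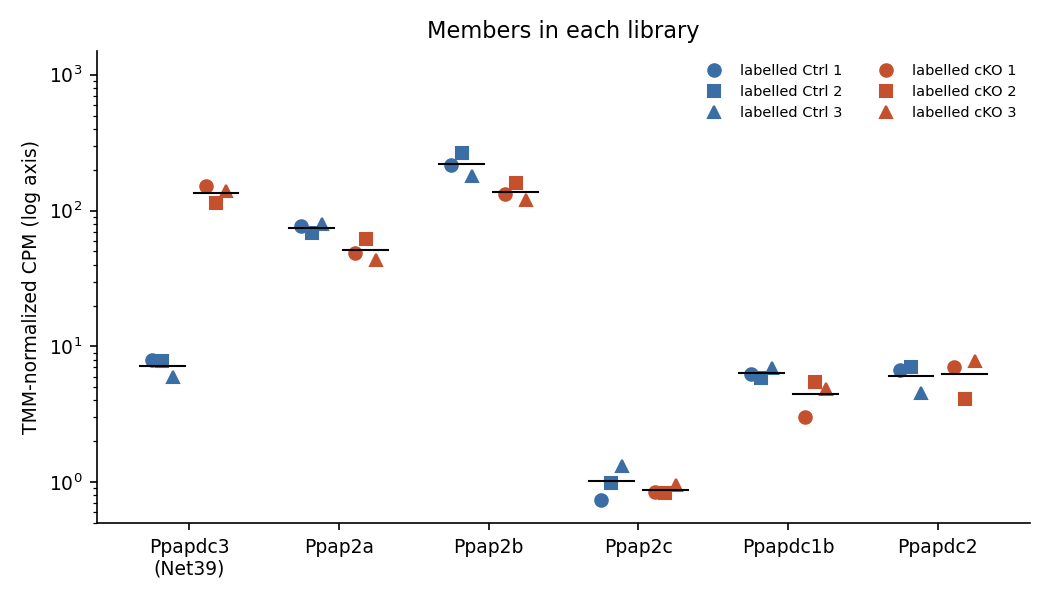
TMM-normalized CPM (log axis) of 6 members in each library, with blue for Ctrl-labelled libraries, orange for the cKO-labelled libraries, a symbol for each mouse number and a bar at each group mean. Ppapdc1a, with 3 counts in all, is not drawn. Net39 lies at 5.93 to 7.92 CPM in the Ctrl-labelled libraries and at 113 to 151 in the cKO-labelled libraries, while Ppap2a and Ppap2b lie higher in the Ctrl-labelled libraries.

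None of the 5 relatives tested was higher in the Ctrl-labelled libraries by as much as Net39 was lower in them. Ppap2a and Ppap2b passed the test with higher levels in the Ctrl-labelled libraries, by 1.46- and 1.604-fold. Of the 5 relatives tested, these 2 passed in that direction, against 11.8% of all genes tested. By edgeR, 0 passed in the other direction, against 12.6% of all genes, and 0 also did so at an unadjusted p under 0.05 or with DESeq2. Among the 5, 0 passed with a fold change over 2, against 6.05% of all genes in either direction and 3.92% in the direction of these 2. Their median log2 fold change was −0.50, beside −0.02 over all genes tested, and 4 of the 5 had a negative value. For 3 of the 5 the groups did not overlap, each with the higher values in the Ctrl-labelled libraries, where 21.9% of all genes tested did the same and 43.9% did not overlap in either direction. Scaled by total counts alone, the median of all genes moved to −0.27, and 0 relatives passed with higher levels in the cKO-labelled libraries under any of the alternatives.

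Ppap2b, which encodes LPP3, a surface enzyme known for degrading lysophosphatidate in vessels and connective tissue, was the tested relative with the largest fold change with all libraries kept. Its TMM-normalized CPM was 218, 265 and 178 in the Ctrl-labelled libraries 1, 2 and 3 and 133, 159 and 120.2 in cKO-labelled libraries 1, 2 and 3. The groups did not overlap, with labelled Ctrl 2 the highest of all and labelled cKO 3 the lowest. The means were 220.5 ± 43.6 and 137 ± 19.7 CPM (SD, n = 3 each), and the exact two-sided permutation test gave p = 0.1, the smallest that 3 against 3 allows. The log2 fold change was −0.68 (SE 0.17, 95% interval −1.07 to −0.29, edgeR adjusted p = 0.0261). Ppap2b did not pass without labelled Ctrl 1, Ctrl 2, cKO 1 or cKO 3, with adjusted p of 0.0748, 0.0730, 0.0856 and 0.0890. The log2 fold changes were then −0.69, −0.52, −0.67 and −0.61. Fewer of all genes passed in these fits, 1575, 1820, 1789 and 1560 against 3454 with all libraries. Without labelled Ctrl 2 the values of Ppap2a (−0.61) and Ppapdc1b (−0.55) were larger in size than that of Ppap2b. Ppap2b passed without labelled Ctrl 3 and without labelled cKO 2 (0.0145 and 0.0221), where 3232 and 3585 genes did.

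Ppap2a, which encodes LPP1, a widely expressed enzyme of the same branch, differed in the same direction. Its CPM was 76.5, 68.2 and 79.1 in the Ctrl-labelled libraries 1, 2 and 3 and 48.7, 61.4 and 43.0 in cKO-labelled libraries 1, 2 and 3. The groups did not overlap, and labelled cKO 2 lay nearest to the Ctrl-labelled libraries. The means were 74.6 ± 5.65 and 51.0 ± 9.40 CPM (SD, n = 3 each; exact two-sided permutation p = 0.1), and the log2 fold change was −0.55 (SE 0.14, 95% interval −0.87 to −0.23, edgeR adjusted p = 0.0278). The adjusted p was 0.0885, 0.0530 and 0.0644 without labelled Ctrl 1, 2 or 3 and 0.0886 and 0.0752 without labelled cKO 1 or 3, with log2 fold changes of −0.61 to −0.45. Without labelled cKO 2, the library nearest to the other group, the value was −0.72 and the adjusted p 0.00679. The exons of Ppap2a share 452 bases with those of Skiv2l2 (Mtrex) on the opposite strand, and whether counting used the strand is not given in the sources used here, so reads of the shared bases cannot be told apart. Skiv2l2, the RNA helicase of the nuclear exosome, differed the other way, from 43.2 to 49.8 CPM in the Ctrl-labelled libraries to 53.0 to 60.9 CPM in the cKO-labelled libraries (log2 fold change 0.29, SE 0.09, edgeR adjusted p = 0.0450).

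Both genes are expressed by cell types beside the fibres, and in whole muscle fewer cells of a type and less RNA per cell cannot be told apart. Smooth muscle and pericyte markers summed to 461 to 479 CPM in the Ctrl-labelled libraries and 367 to 396 CPM in the cKO-labelled libraries, with 3 of 6 genes passing as higher in the former, where 11.8% of all genes tested did. Endothelial markers summed to 453 to 463 and 396 to 434 CPM (1 of 7 passing), fibroblast and fibro-adipogenic progenitor markers to 1060 to 1260 and 698 to 1250 CPM (3 of 6), and immune markers to 124 to 196 and 54.7 to 84.7 CPM (4 of 7), each counted as higher in the Ctrl-labelled libraries. With DESeq2, 4 smooth muscle, 1 endothelial, 3 fibroblast and 7 immune markers passed in this direction, where 13.2% of all genes did. Schwann cell markers summed to 88.1 to 138 and 46.2 to 88.6 CPM and adipocyte markers to 15.1 to 49.3 and 17.7 to 52.7 CPM, with 0 of 5 passing in each list by edgeR. At an unadjusted p under 0.05, 2 Schwann cell markers and 0 adipocyte markers were higher in the Ctrl-labelled libraries, and with DESeq2 1 and 0 passed. Satellite cell markers summed to 18.8 to 20.1 and 24.1 to 29.4 CPM, with 1 of 3, Cdh15, passing as higher in the cKO-labelled libraries, where 12.6% of all genes did. Cdh15, with means of 15.8 and 22.7 CPM, made up most of that sum. Pax7 (means 2.17 and 2.03 CPM) and Myf5 (1.32 and 1.98 CPM) did not pass. Each marker passed the filter on low counts, so no list was at 0, and the part of these cell types in the values of Ppap2a and Ppap2b was not tested. Among the cKO-labelled libraries, labelled cKO 2 had the highest levels of Ppap2a and Ppap2b, the lowest level of Net39 and the lowest sum of the skeletal myofibre markers. It had the highest sum of every other marker list except that of Schwann cells. Single markers did not all follow their sums, and Pecam1 (87.5 CPM), Vwf (45.3 CPM) and Pdgfra (28.1 CPM) were lowest in that library.

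Ppapdc1b, a PAP2-domain enzyme of intracellular membranes, lay at 6.23, 5.84 and 6.89 CPM in the Ctrl-labelled libraries 1, 2 and 3 and at 3.05, 5.51 and 4.86 CPM in cKO-labelled libraries 1, 2 and 3. The groups did not overlap, although labelled cKO 2 and labelled Ctrl 2 were close, and labelled cKO 1 was the lowest. Its log2 fold change of −0.50 (SE 0.22, 95% interval −1.01 to 0.02) did not pass (edgeR adjusted p = 0.139), and it was −0.30 without labelled cKO 1, with an adjusted p of 0.209. Ppapdc2, the isoprenoid diphosphate phosphatase, shares 202 exon bases with 4430402I18Rik on the opposite strand, with the same limit on reads as for Ppap2a. It lay at 6.67, 7.07 and 4.54 CPM in the Ctrl-labelled libraries and at 7.03, 4.13 and 7.77 CPM in the cKO-labelled libraries. The groups overlapped fully, with 1 low library in each, labelled Ctrl 3 and labelled cKO 2. The log2 fold change was 0.05 (SE 0.27, 95% interval −0.58 to 0.68, edgeR adjusted p = 0.909), an interval that as a ratio runs from 0.670 to 1.599. The sign of the fold change turned without labelled Ctrl 3 (−0.12), labelled cKO 1 (−0.046) or labelled cKO 3 (−0.15). With total counts the value was −0.22, where the median of all genes was −0.27.

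Ppap2c, which encodes LPP2, was the lowest member tested, with 29, 41 and 48 counts in the Ctrl-labelled libraries 1, 2 and 3 and 30, 32 and 42 in cKO-labelled libraries 1, 2 and 3. These were 0.741 to 1.31 CPM and 0.831 to 0.954 CPM, and the values labelled cKO lay within the range of the Ctrl-labelled libraries. The log2 fold change was −0.20 (SE 0.27, 95% interval −0.83 to 0.42, edgeR adjusted p = 0.610), and it was 0.022 without labelled Ctrl 3. Ppapdc1a had 0, 0 and 1 counts in the Ctrl-labelled libraries and 0, 1 and 1 in the cKO-labelled libraries. It did not pass the filter on low counts and was not tested. A floor of 3 counts stands for 0.0682 to 0.0847 CPM in these libraries, so the gene was not detectable above that level in either group, counting error only.

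**Figure D2:**
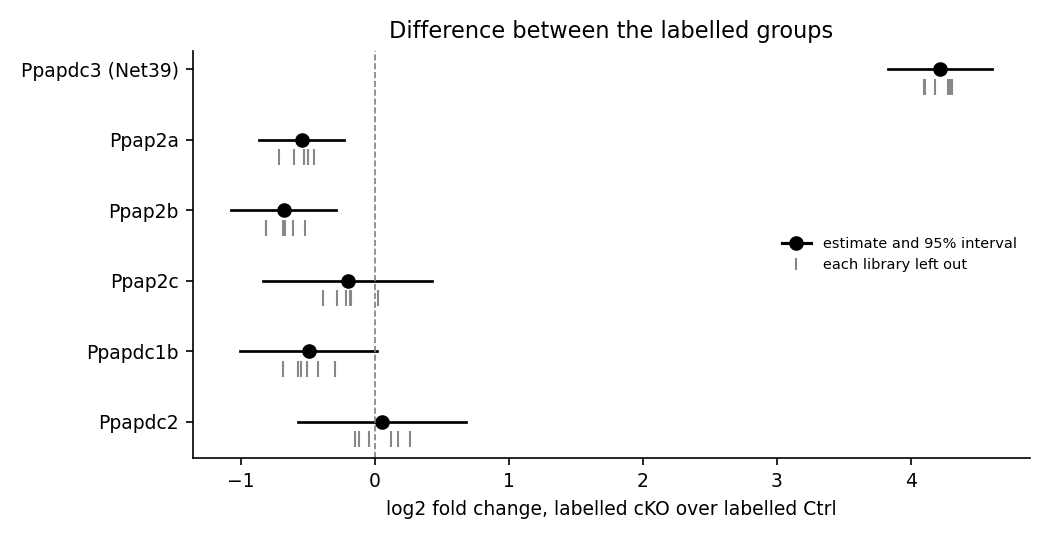
Log2 fold change, labelled cKO over labelled Ctrl, of the 6 members tested, with points for the estimates, lines for their 95% intervals and grey ticks for the values with each library left out in turn. Net39 stays between 4.10 and 4.31, Ppap2a between −0.72 and −0.45 and Ppap2b between −0.82 and −0.52, while the intervals of Ppap2c, Ppapdc1b and Ppapdc2 include 0.

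To compare levels between genes, CPM was divided by the length of each gene's exon union in GENCODE M21 (CPM per kb). In the Ctrl-labelled libraries, Ppap2b was the highest at 69.8 ± 13.8 CPM per kb, followed by Ppap2a at 42.6 ± 3.23 and Net39 at 3.46 ± 0.53 (SD, n = 3 each). Ppapdc2 at 2.13 ± 0.48 and Ppapdc1b at 1.79 ± 0.15 overlapped each other, and Ppap2c at 0.613 ± 0.17 and Ppapdc1a lay below. In the cKO-labelled libraries, Net39 stood first at 64.5 ± 9.47 CPM per kb, followed by Ppap2b at 43.5 ± 6.24 and Ppap2a at 29.2 ± 5.37, and these 3 did not overlap. Ppapdc2 at 2.21 ± 0.67 and Ppapdc1b at 1.27 ± 0.36 again overlapped, above Ppap2c at 0.530 ± 0.041. Some neighbours in this order depend on the length used. Per kb of the longest transcript, Ppapdc1b lay at 2.99 ± 0.25 and 2.11 ± 0.60 in the Ctrl- and cKO-labelled libraries, above Ppapdc2 and overlapping Net39 in the former. Ppap2b (38.0 to 50.3 CPM per kb) and Ppap2a (26.9 to 38.4) then overlapped in the cKO-labelled libraries, and Ppapdc1b stayed far below both.

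Net39 thus stood first among the 7 in the cKO-labelled libraries and behind Ppap2b and Ppap2a in the Ctrl-labelled ones. Its share of the summed per-length level of the 7 genes was 3.15%, 2.84% and 2.62% in the Ctrl-labelled libraries 1, 2 and 3 and 49.7%, 37.9% and 49.7% in cKO-labelled libraries 1, 2 and 3. The 6 relatives summed to 117, 128 and 106 CPM per kb in the Ctrl-labelled libraries and to 73.9, 88.9 and 67.3 in the cKO-labelled libraries, with no overlap. The sum of all 7 was 121, 131 and 109 CPM per kb and 147, 143 and 134 CPM per kb, respectively, also with no overlap and with the lower values in the Ctrl-labelled libraries. That order of the 7-gene sums depends on the scaling: by total counts they were 135, 143 and 118 CPM per kb and 127, 141 and 121, and the groups overlapped, with means of 132 and 129. The mean of the relatives was 40.3 CPM per kb higher in the Ctrl-labelled libraries and that of Net39 61.1 CPM per kb lower, so that the first difference was 66.0% of the second. By total counts the differences were 57.2 and 55.0 CPM per kb, and the first was 104% of the second, while the relatives still did not overlap between the groups. Ppap2a and Ppap2b account for nearly all of the relatives' sum, and their ratio, Ppap2b over Ppap2a, ran from 1.25 to 2.16 in the Ctrl-labelled libraries and from 1.44 to 1.55 in the cKO-labelled libraries. RNA levels were measured here, and neither protein nor phosphatase activity was.

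**Figure D3:**
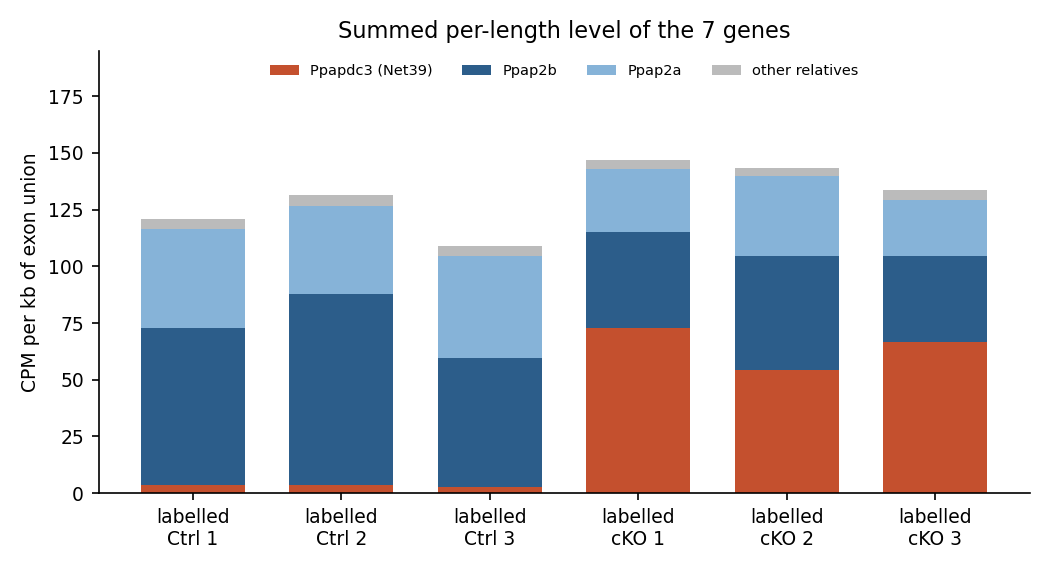
TMM-normalized CPM per kb of exon union, stacked by gene, in each of the 6 libraries, with Net39 in orange, Ppap2b in dark blue, Ppap2a in light blue and the other 4 relatives in grey. The stacks reach 109 to 131 CPM per kb in the Ctrl-labelled libraries, of which Net39 is 2.62% to 3.15%, and 134 to 147 in the cKO-labelled libraries, of which it is 37.9% to 49.7%, although with total counts in place of TMM the stacks of both groups overlap.

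The difference at Net39 was compared with the genes beside it on chromosome 2, the 5 nearest protein-coding genes on each side. Of the 10, 9 passed the filter on low counts and Fibcd1 did not. The nearest upstream, Fam78a, starts 10.67 kb from Net39 and lay at 17.8 to 32.8 CPM in the Ctrl-labelled libraries and 31.5 to 34.8 in the cKO-labelled libraries (log2 fold change 0.35, SE 0.20, edgeR adjusted p = 0.242). The nearest downstream, Prrc2b, passed at 0.35 (SE 0.10, adjusted p = 0.0449), and so did Lamc3, a laminin chain, at 1.06 (SE 0.29, adjusted p = 0.0370), both higher in the cKO-labelled libraries. Aif1l passed with higher levels in the Ctrl-labelled libraries (−1.33, SE 0.26, adjusted p = 0.0128). Nup214, a nuclear pore protein, was at 0.01, and Pomt1, Uck1, Swi5 and Golga2 lay between −0.23 and 0.05, none of which passed. The median of the 9 was 0.05, and 3 of 9 passed where 24.4% of all genes did.

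With total counts Prrc2b was at 0.09 (adjusted p = 0.416) and Lamc3 at 0.82 (adjusted p = 0.0715), so neither passed. The median of all genes was −0.27 under that scaling, and relative to it Prrc2b and Lamc3 were at 0.36 and 1.09. None of the 3 neighbours passed in every fit with a library left out, where 1560 to 3585 of all genes passed, against 3454 with all libraries. Their log2 fold changes in these fits were −1.69 to −1.16 (Aif1l), 0.27 to 0.40 (Prrc2b) and 0.81 to 1.29 (Lamc3). Aif1l had an adjusted p of 0.0519 without labelled cKO 3. Prrc2b passed without labelled Ctrl 3 (0.0471) or labelled cKO 2 (0.0262). Its adjusted p was 0.141, 0.120, 0.137 and 0.131 without labelled Ctrl 1, Ctrl 2, cKO 1 and cKO 3. Lamc3 passed only without labelled Ctrl 3 (0.0304), among the 6 libraries left out. Its adjusted p was 0.0715, 0.0843, 0.0619, 0.0739 and 0.112 without labelled Ctrl 1, Ctrl 2, cKO 1, cKO 2 and cKO 3.

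**Figure D4:**
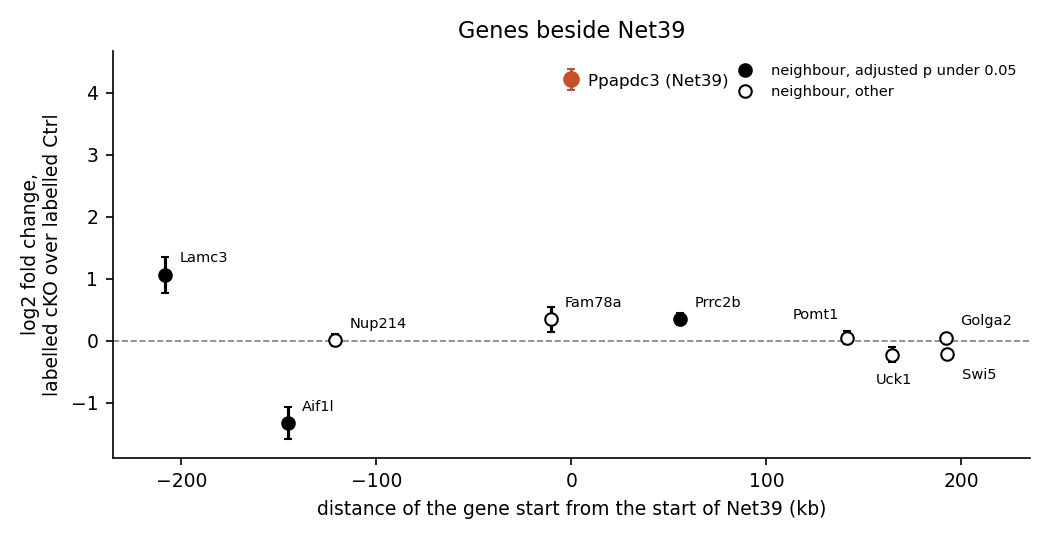
Log2 fold change, labelled cKO over labelled Ctrl, of Net39 (orange) and 9 neighbouring genes against the distance of their start sites from that of Net39 in kb, with bars for the SE and filled points for neighbours at an adjusted p under 0.05. Net39 lies at 4.22 and the neighbours between −1.33 and 1.06.

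The genes whose levels followed Net39 most closely over the 6 libraries were 1700001O22Rik, Mss51, Fgfbp1, Gm19299 and Prima1, by the root mean square difference of centred log2 CPM, which was 0.628, 0.665, 0.679, 0.891 and 0.892. They were chosen for this likeness among genes with a mean of at least 1 CPM, and their levels are a description. Mss51 lay at 7.84, 14.5 and 15.7 CPM in the Ctrl-labelled libraries and at 103, 145 and 291 CPM in the cKO-labelled libraries. 1700001O22Rik lay at 0.281 to 1.21 and 9.51 to 11.7 CPM, and Fgfbp1, Gm19299 and Prima1 had means of 4.30 to 7.01 CPM in the cKO-labelled libraries and under 1 CPM in the Ctrl-labelled libraries. Within the cKO-labelled group Fgfbp1 and Prima1 kept the order of Net39, with library 1 the highest and library 2 the lowest, and the others did not: Mss51 was highest in labelled cKO 3 and 1700001O22Rik and Gm19299 were highest in labelled cKO 2. Within the Ctrl-labelled group, where Net39 was highest in library 1 and lowest in library 3, none of these genes kept its order.

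Genes around the family were read from 7 lists of lipid pathways in which it acts, with 89 genes, and a list of 3 muscle nuclear envelope proteins. Of these 92 genes, 76 were tested (73 of the lipid genes), and by edgeR 8 passed as higher in the cKO-labelled libraries and 14 as higher in the Ctrl-labelled libraries, against 12.6% and 11.8% of all genes tested. Of the lipid genes alone, 8 and 13 passed. With total counts 3 and 35 of the 76 passed, where 4.75% and 28.7% of all genes tested did. Of the 22 genes, 9 passed with each library left out in turn and 0 changed sign under any alternative. The number that still passed was 11, 12 and 18 without labelled Ctrl 1, 2 and 3 and 10, 20 and 9 without labelled cKO 1, 2 and 3.

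Other PAP2 enzymes and PAP2-like proteins moved in both directions. Of 14 genes 9 were tested, with a median log2 fold change of 0.01. Of the 9, 3 passed as higher in the cKO-labelled libraries and 2 as higher in the Ctrl-labelled libraries, against 12.6% and 11.8% of all genes tested. Sgms1, the sphingomyelin synthase of the Golgi, lay at 53.9 to 64.7 CPM in the Ctrl-labelled libraries and 77.9 to 94.0 in the cKO-labelled libraries (0.52, SE 0.10, adjusted p = 0.0135). Samd8, a ceramide phosphoethanolamine synthase, was at 0.44 (adjusted p = 0.0237) and G6pc3, the ubiquitous glucose-6-phosphatase, at 0.30 (adjusted p = 0.0279). Sgms2, the sphingomyelin synthase of the cell surface, was higher in the Ctrl-labelled libraries, with 2.22 to 4.92 CPM against 0.931 to 1.48 (−1.39, SE 0.34, adjusted p = 0.0268), as was Lppr2, a PAP2-like protein without the catalytic residues (−1.06, SE 0.24, adjusted p = 0.0221). With total counts, Sgms1, Samd8 and G6pc3 no longer passed (adjusted p = 0.0609, 0.210 and 0.654). Relative to the median of all genes under that scaling, −0.27, they were at 0.53, 0.46 and 0.315. Without labelled Ctrl 1 or labelled cKO 1, Sgms2, Lppr2, Samd8 and G6pc3 did not pass (adjusted p from 0.0592 to 0.102). None of the 5 passed without labelled cKO 3 (0.0519 to 0.0738), nor did Lppr2, Samd8 and G6pc3 without labelled Ctrl 2 (0.0514 to 0.0861). Sgpp1, a sphingosine-1-phosphate phosphatase of the endoplasmic reticulum, had nearly equal means of 25.8 ± 0.83 and 26.1 ± 0.18 CPM (SD, n = 3 each), and Sgpp2 was too low to test.

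The lipins are the magnesium-dependent phosphatidate phosphatases, which make diacylglycerol by another route than the PAP2 enzymes. Lpin1, the main lipin of muscle, was at 228, 294 and 296 CPM in the Ctrl-labelled libraries and at 690.4, 435 and 525 CPM in the cKO-labelled libraries. The groups did not overlap, and Lpin1 was low in the libraries where Net39 was low, whereas Ppap2a and Ppap2b were high in them. The log2 fold change was 1.01 (SE 0.19, edgeR adjusted p = 0.0111), and it lay between 0.80 and 1.14 with each library left out, each time passing. Lpin2 at −0.57 (SE 0.25, adjusted p = 0.136) and Lpin3 at −0.50 (SE 0.21, adjusted p = 0.129) did not pass.

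Among enzymes that supply phosphatidate and lysophosphatidate, 21 of 26 were tested, with a median of −0.21. Of the 21, 1 passed as higher in the cKO-labelled libraries and 5 as higher in the Ctrl-labelled libraries, against 12.6% and 11.8% of all genes tested. Enpp2, which encodes autotaxin, the secreted enzyme that makes lysophosphatidate, lay at 32.1 to 36.8 CPM in the Ctrl-labelled libraries and 23.4 to 25.5 in the cKO-labelled libraries (−0.52, SE 0.08, adjusted p = 0.00750). It was thus higher in the same libraries as Ppap2b, whose product degrades lysophosphatidate. Agpat4, an acyltransferase that makes phosphatidate, was at −0.77 (SE 0.15, adjusted p = 0.0122) and the phospholipase D gene Pld1 at −0.46 (SE 0.13, adjusted p = 0.0449). Pld1 passed only without labelled Ctrl 3 among the 6 libraries left out, with log2 fold changes of −0.55 to −0.34 in these fits. Its adjusted p was 0.0931 and 0.133 without labelled Ctrl 1 and 2 and 0.119, 0.0882 and 0.0724 without labelled cKO 1, 2 and 3, whereas Enpp2 and Agpat4 passed in all 6 fits. Of the 6 lysophosphatidate receptors 4 were tested and 0 passed by edgeR or DESeq2, with 1, Lpar1, at an unadjusted p under 0.05 (11.3 to 12.0 CPM in the Ctrl-labelled libraries and 6.97 to 10.9 in the cKO-labelled libraries).

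Of the 7 genes that use diacylglycerol and phosphatidate, Cds2, a CDP-diacylglycerol synthase, passed, with 98.9 to 104 CPM in the Ctrl-labelled libraries and 73.0 to 77.8 in the cKO-labelled libraries (−0.45, SE 0.07, adjusted p = 0.00628). In the sphingosine-1-phosphate and ceramide list, 18 of 22 genes were tested. Of the 18, 1 passed as higher in the cKO-labelled libraries and 3 as higher in the Ctrl-labelled libraries, against 12.6% and 11.8% of all genes tested. Spns2, the exporter of sphingosine-1-phosphate, had 43.6, 64.7 and 59.1 CPM in the Ctrl-labelled libraries and 132, 91.2 and 124 CPM in the cKO-labelled libraries (1.05, SE 0.19, adjusted p = 0.00935). Sphk1, a kinase that makes the lipid, had 2.40 to 4.21 and 0.909 to 1.22 CPM (−1.57, SE 0.27, adjusted p = 0.00878). The groups of both genes were apart in every library. Sgpl1, the lyase that ends the pathway, and Cerk, the ceramide kinase, were at −0.44 and −0.50 (adjusted p = 0.0268 and 0.0351). Neither passed without labelled Ctrl 2, cKO 1 or cKO 3 (adjusted p from 0.0709 to 0.114), nor did Sgpl1 without labelled Ctrl 3 (0.0557) or Cerk without labelled Ctrl 1 (0.107), while Spns2 and Sphk1 passed in all 6 fits. With each library left out, Sgpl1 lay between −0.50 and −0.35 and Cerk between −0.61 and −0.38. Cers1, the main ceramide synthase of muscle, was listed at 0 in all 6 libraries, as was Gdf1, which shares its locus. How reads shared by both genes were treated in counting is not given in the sources used here, so the 0 cannot be read as absence of Cers1.

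In the list of isoprenoid diphosphate synthesis, the substrates of the product of Ppapdc2, all 11 genes were tested and the median was 0.07. In each direction 2 passed, against 12.6% of all genes tested as higher in the cKO-labelled libraries and 11.8% in the Ctrl-labelled libraries. Mvd, which makes isopentenyl diphosphate, differed most, with 46.0, 44.4 and 37.3 CPM in the Ctrl-labelled libraries and 10.3, 11.9 and 7.88 CPM in the cKO-labelled libraries (−2.08, SE 0.16, adjusted p = 0.000897). It was 4.24-fold higher in the Ctrl-labelled libraries, and its groups were well apart. Mvk, at an earlier step, was at −0.56 (adjusted p = 0.0252), while Pmvk, between them, was at 0.49 (adjusted p = 0.0169) and Fdft1, the squalene synthase that forms presqualene diphosphate, at 0.65 (SE 0.07, adjusted p = 0.00265). With total counts Pmvk was at 0.24 and did not pass (adjusted p = 0.129), while Mvk, Mvd and Fdft1 did, in the same directions as before. Relative to the median of all genes under that scaling, Pmvk was at 0.51. Mvk and Pmvk did not pass without labelled Ctrl 1, cKO 1 or cKO 3 (adjusted p from 0.0533 to 0.0878), nor did Mvk without labelled Ctrl 2 (0.0811). With each library left out, Mvk lay between −0.69 and −0.48 and Pmvk between 0.42 and 0.54. Mvd and Fdft1 passed in all 6 fits. Ppapdc2 itself did not pass.

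Net39 has been grouped with other muscle-enriched transmembrane proteins of the nuclear envelope. Wfs1 was higher in the Ctrl-labelled libraries, with 296, 310.4 and 168 CPM against 116, 112 and 81.5 CPM in the cKO-labelled libraries (−1.32, SE 0.25, adjusted p = 0.0117, passing in all 6 fits). The groups did not overlap, and labelled Ctrl 3 was the lowest of its group. Tmem38a, an abundant cation channel of the sarcoplasmic reticulum, had means of 1435 ± 56.1 and 1675 ± 137 CPM (SD, n = 3 each; 0.22, adjusted p = 0.165), and Tmem214 was at −0.11 (adjusted p = 0.425). Of these 3 genes 1 passed, opposite in direction to Net39, where 24.4% of all genes tested passed in either direction and 11.8% in that of Wfs1.

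**Figure D5:**
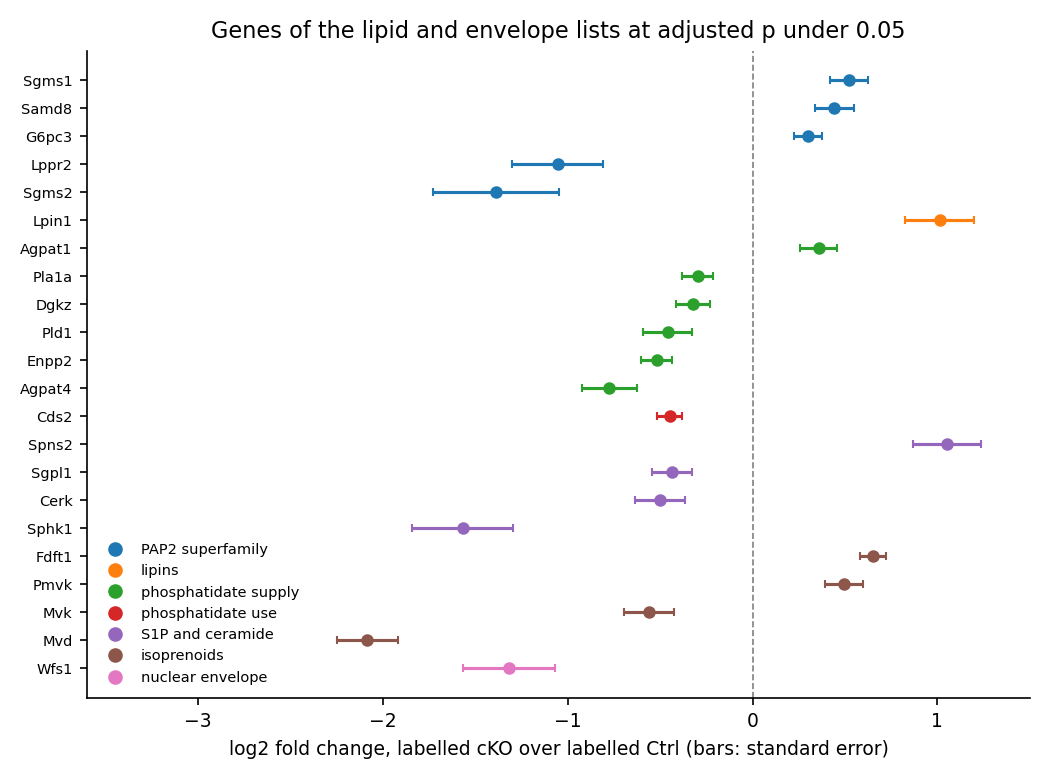
Log2 fold change, labelled cKO over labelled Ctrl, with bars for the SE, of the 22 genes of the lipid and envelope lists at an adjusted p under 0.05, coloured by list. The 8 genes to the right of 0 reach 1.05 (Spns2) and the 14 to the left reach −2.08 (Mvd).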

How the data were processed

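The data are bulk RNA-Seq of GP muscle from 3 mice labelled Ctrl and 3 labelled cKO. Per the labels and methods, mRNA libraries were prepared and sequenced by a company, and the authors checked reads in FastQC 0.11.8 and trimmed them in Trimmomatic 0.39, and used HISAT2 2.1.0 for alignment against mm10 and featureCounts 1.6.2 for gene counts. The authors deposited whole-number counts without normalization, 1 table per library. The annotation, the strand setting and the handling of reads with several alignments are not given in the sources used here. Of the 24421 rows, 98.5% were matched to GENCODE M21 by symbol or RefSeq synonym, all 7 members by synonym.

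The main test was the quasi-likelihood F test of edgeR 4.0.16 under R 4.3.3 (TMM, filterByExpr, estimateDisp, glmQLFit, glmQLFTest, Benjamini-Hochberg adjustment over 14180 genes). A gene passed at an adjusted p under 0.05 and was called where the fold change also exceeded 2. The SE was derived from the F statistic, and 95% intervals used the test's degrees of freedom. CPM used TMM library sizes. Totals of 33860001 to 48839910 counts per library limit the precision of low genes, for which floors cover counting error only. Single members were compared by exact permutation tests in scipy 1.17.1. The mice are separate animals per the design.

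The members, lists and markers were chosen with earlier results of these data known. Named are all members, the genes of each pathway list that passed (the 3 largest where more than 5 did), genes with a role next to a member (the lipins, Sgpp1, Sgpp2, G6pc3, Enpp2, Sphk1, Tmem38a, Wfs1 and Tmem214), 5 neighbours on each side of Net39 and the 5 nearest profiles (pseudocount 0.1 CPM). Skiv2l2, 4430402I18Rik, Lpar1, Cers1, Gdf1, Myh1, Myh4, Acta1, Ttn, Cdh15, Pax7, Myf5, Pecam1, Vwf and Pdgfra are named outside this rule, after their values were seen. As alternatives, the fit was repeated with total counts or the size factors of DESeq2, with a robust setting, without the filter, with a minimum of 10 counts per library, with a block for mouse number and without each library in turn. DESeq2 1.42.0, calls without the fold limit and lengths of the longest transcript were also tried. On simulated data with 200 changed genes among 14170, edgeR recovered 86.5%. Promoter windows are from RefSeq.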

Additional observations from a re-analysis of the deposited data

How the results depend on the processing

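Net39 kept its direction and passed under all 13 alternatives, including each library left out (4.10 to 4.31). With each library left out, the log2 fold change of Ppap2a ranged from −0.72 to −0.45, that of Ppap2b from −0.82 to −0.52, that of Ppap2c from −0.38 to 0.022, that of Ppapdc1b from −0.68 to −0.30 and that of Ppapdc2 from −0.15 to 0.26, and 0 to 2 relatives passed as higher in the Ctrl-labelled libraries. In the same fits 1560 to 3585 genes passed, and 580 to 1035 were called, 172 to 387 higher in the cKO-labelled libraries and 398 to 685 higher in the Ctrl-labelled libraries. With total counts, Ppapdc2 was at −0.22, 157 genes were called as higher in the cKO-labelled libraries and 1023 as higher in the Ctrl-labelled libraries, the relatives summed to 127.9 CPM per kb in the Ctrl-labelled libraries, and 3 and 35 list genes passed as higher in the cKO- and Ctrl-labelled libraries, where 673 (4.75%) and 4074 (28.7%) of all genes did. The median of all genes moved with this scaling, as given above. Without the fold limit 3454 genes were called, 1786 and 1668 in these directions, since the limit removes genes by construction.

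The labels number the mice 1 to 3 in each group. Deviations of same-numbered libraries from their group means correlated at r = 0.084, −0.215 and −0.002, and those of other pairs at −0.217 to 0.194. With 3 mice per group these values cannot decide whether a shared number stands for a shared origin. With the mouse number as a replicate block 1899 genes passed, and Ppap2a was at −0.56 with an edgeR adjusted p of 0.0714. Ppap2b, at −0.67 (SE 0.09, adjusted p = 0.0196), was the 1 relative that passed as higher in the Ctrl-labelled libraries. Of the list genes 4 and 7 passed as higher in the cKO- and Ctrl-labelled libraries, where 6.54% and 6.85% of all genes did. The cause of these changes was not tested. Ppapdc1a, with 3 counts in all, was too low to test.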
